A study of Mus musculus with 20 samples.

Results

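The genes of the cytosolic ribosomal proteins were followed through 20 mouse melanoma tumours. Members were all genes with a symbol of the form Rpl or Rps and a number, with an optional letter or copy number, plus Rplp0, Rplp1, Rplp2 and Rpsa. Pseudogenes and the kinases named Rps6k are left out by that form. The rule found 83 of the 32285 genes in the table. B16F10, a melanoma line of C57BL/6 origin, had been implanted in immunocompetent mice of that strain, and the labels give the genotype as wild type. Tumours of 4 groups were compared, with 5 tumours in each. The combination group received propafenone, a sodium channel blocker used against cardiac arrhythmia, together with anti-PD-1, an antibody that blocks the checkpoint receptor PD-1 on T cells. The propafenone group received the drug without anti-PD-1, the anti-PD-1 group received the antibody without the drug, and the IgG group received control antibody. All injections were intra-peritoneal and began near a tumour volume of 100 mm3, and all tumours were taken on day 16. Age and sex of the mice are not given in the sources used here. The title of the series names ferroptosis and synergy with immunotherapy as its subject. The labels do not say that each tumour came from its own animal, so p-values measure the spread between these tumours.

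A ribosome is built from a small subunit, which reads the messenger RNA, and a large subunit, which joins amino acids. Each holds one copy of nearly every core ribosomal protein, so their genes tend to be transcribed together and at high level in growing cells. Their messengers typically begin with a tract of C and U, the terminal oligopyrimidine tract, through which the kinase mTOR controls their translation. RNA levels alone do not show that control. Several surplus ribosomal proteins, RPL5 and RPL11 of human cells among them, bind the p53 inhibitor MDM2.

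Expected counts, the authors' estimated reads per gene, summed to between 56.0 and 64.5 M (1e+06) per tumour. The 11 melanocyte lineage genes, which check the labelled cell type, summed to between 18419 and 29110 CPM (counts scaled to a library total of 1e+06 after TMM) and stood high in every tumour. Markers of other cells differed between groups in their medians, and many ranges overlapped between groups. The 19 skeletal muscle genes summed to a median of 593 CPM in combination tumours (64.1 to 712), 111 CPM in propafenone tumours (40.7 to 123), 273 CPM in anti-PD-1 tumours (31.3 to 416) and 29.5 CPM in IgG tumours (24.6 to 149). The 8 red blood cell genes had medians of 379 CPM (223 to 508), 1312 CPM (827 to 6685), 490 CPM (360 to 5859) and 952 CPM (355 to 11803) in the same order of groups. None of the genes in either list was at 0 in all 20 tumours. In combination against IgG tumours edgeR called 9 of 19 muscle genes higher, 2 of 8 red blood cell genes lower and 12 of 18 macrophage and monocyte genes higher. It called 5 of 11 fibroblast genes higher, and 1 gene higher in each of the T and NK cell, B cell, adipocyte and endothelium lists. In the keratinocyte and melanocyte lists it called 0. Among all genes 2.24% were called higher and 2.63% lower. In propafenone and in anti-PD-1 tumours, each against IgG, edgeR called 0 genes of these marker lists and 0% of all genes. In bulk tumours, fewer cells of a type and less RNA per cell cannot be told apart.

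Of the 83 members 82 passed the filter on low counts. They were 31 proteins of the small subunit, 43 of the large subunit, the 3 P stalk proteins and 5 rows for paralogs. Rpl10l, a copy of Rpl10 known from testis, had 0 counts in all 20 tumours. Per transcript length, in TPM averaged over 20 tumours, the most abundant member was Rps2, a small subunit protein at the messenger entry channel, with 3281 TPM, the rank of 22 among all genes. Next came Rpl8 with 2780 TPM, the P stalk base Rplp0 with 2717 TPM, the stalk protein Rplp1 with 2612 TPM and Rpsa, the laminin receptor precursor, with 2365 TPM. At the other end the paralogs Rpl39l and Rpl3l, read in 19 and 20 tumours, had 0.604 and 0.567 TPM. Above them Rps20 had 137 TPM, Rpl21 140 TPM, the paralog Rpl7l1 142 TPM and Rps15a 161 TPM. Core proteins are needed in equal numbers, and the transcript levels of Rps2 and Rps20 stood far apart on this scale. TPM of short genes depends on the transcript length the authors assigned, and reads shared with processed pseudogenes make single levels uncertain: GENCODE names 292 pseudogenes for 60 of the members. The table holds rows for 5 ribosomal protein pseudogenes, with 0.259% of the members' counts.

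**Figure D1:**
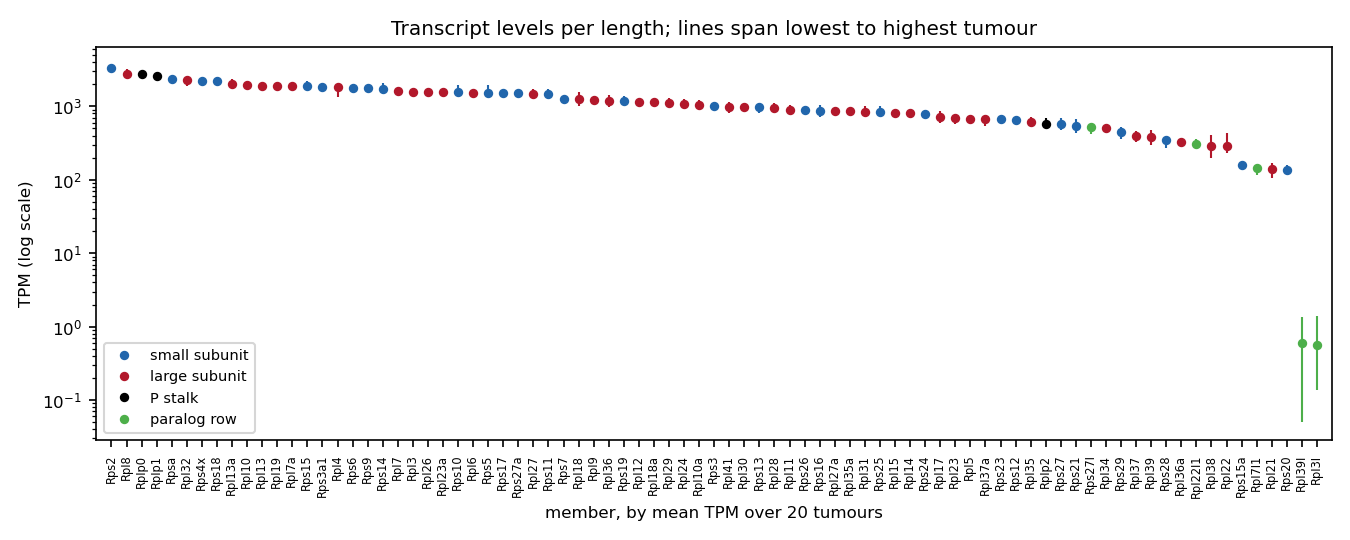
Transcript level of 81 of the 82 members with counts, in TPM on a log axis, ordered by the mean over 20 tumours. Points are means, lines run from the lowest to the highest tumour, and colour gives the subunit. Levels run from 3281 TPM for Rps2 to 137 TPM for Rps20, with the paralogs Rpl39l and Rpl3l at 0.604 and 0.567 TPM. The line of Rpl39l, at 0 TPM in 1 tumour, is drawn to 0.05.

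Beyond the symbol, the members shared features of their genes. They lie on 19 chromosomes, with 14 of them on chromosome 7. In GENCODE for GRCm38, 30 of 83 members (36.1%) carry at least 1 small nucleolar RNA gene within their span, 58 in all, against 222 of 14232 protein-coding genes tested (1.56%). Such RNAs guide chemical marks on ribosomal RNA. RefSeq promoter windows were matched to 63 members. From 40 bases before to 20 bases after the start, a run of at least 8 pyrimidines (C or T, gene strand) was found in 36 of 63 windows (57.1%), against 27.2% of 27025 windows of all genes. The motif CCGGAAG, the core of sites for ETS factors, searched on both strands of the 300 bases around the start, was found in 41.3% of members and 9.93% of all genes. CTTTCC on the gene strand of those 300 bases was found in 39.7% and 16.0%. The TATA box letters TATAAA were found in 9.52% and 9.77%. These letter matches overlap in part with each other and are descriptions of the windows.

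The 60-base windows follow for 9 of the 11 members past the threshold in combination against IgG tumours. Rpl3l is named only. Each is given on the gene strand, 5′ to 3′, from RefSeq on GRCm38.p6, with runs of at least 8 pyrimidines in capitals and the last 20 bases after the annotated start.
Rps27l, chr9:66946046-66946105, plus strand: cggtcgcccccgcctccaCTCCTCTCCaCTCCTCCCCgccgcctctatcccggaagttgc
Rps13, chr7:116334171-116334230, minus strand: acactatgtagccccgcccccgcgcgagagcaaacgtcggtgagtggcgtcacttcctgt
Rps2, chr17:24720023-24720082, plus strand: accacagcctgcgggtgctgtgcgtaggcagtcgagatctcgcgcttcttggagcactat
Rpl13a, chr7:45128726-45128785, minus strand: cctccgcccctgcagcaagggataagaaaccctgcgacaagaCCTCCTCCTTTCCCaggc
Rpl35, chr2:39005112-39005171, minus strand: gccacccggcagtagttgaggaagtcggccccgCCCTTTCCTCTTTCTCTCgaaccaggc
Rps25, chr9:44407674-44407733, plus strand: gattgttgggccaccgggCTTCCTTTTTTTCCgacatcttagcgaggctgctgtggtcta
Rpl24, chr16:55966235-55966294, plus strand: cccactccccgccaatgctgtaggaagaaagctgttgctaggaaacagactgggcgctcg
Rpl27, chr11:101442205-101442264, plus strand: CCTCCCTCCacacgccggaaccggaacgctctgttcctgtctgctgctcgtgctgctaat
Rps27, chr3:90213629-90213688, minus strand: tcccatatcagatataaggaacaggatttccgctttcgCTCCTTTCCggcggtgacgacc
The longest run, 18 bases, is in the Rpl35 window and spans the start, and runs of 14 bases stand in the Rpl13a and Rps25 windows. Rps13, Rps2 and Rpl24 show no run of 8, with 6 bases as the longest, which says only that these letters are not in this window.

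As a share of all counts, the members had lower means in both groups given propafenone, with overlap between tumours. In combination tumours the share was 3.86%, 3.95%, 3.86%, 3.95% and 3.70% (3.86 ± 0.105%, mean ± SD, n = 5). In propafenone tumours it was 3.87%, 3.99%, 3.83%, 3.76% and 3.97% (3.88 ± 0.0963%). In anti-PD-1 tumours it was 3.86%, 4.50%, 4.25%, 3.83% and 4.11% (4.11 ± 0.280%), and in IgG tumours 4.02%, 4.12%, 4.38%, 3.92% and 4.34% (4.16 ± 0.198%). The combination and propafenone tumours lay close together, and their upper values overlapped the lowest IgG tumour. The anti-PD-1 tumours spread most, from 3.83% to 4.50%. With genes of muscle, red blood cells and mitochondrial DNA taken out of the total, the shares were 4.02% in combination, 4.03% in propafenone, 4.31% in anti-PD-1 and 4.34% in IgG tumours. Small subunit counts per count of the large subunit and stalk stayed near one value, with means of 0.687, 0.692, 0.699 and 0.695 and SDs of 0.00483 to 0.0126, in the same order of groups. The share is a sum over the members and was given no test.

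**Figure D2:**
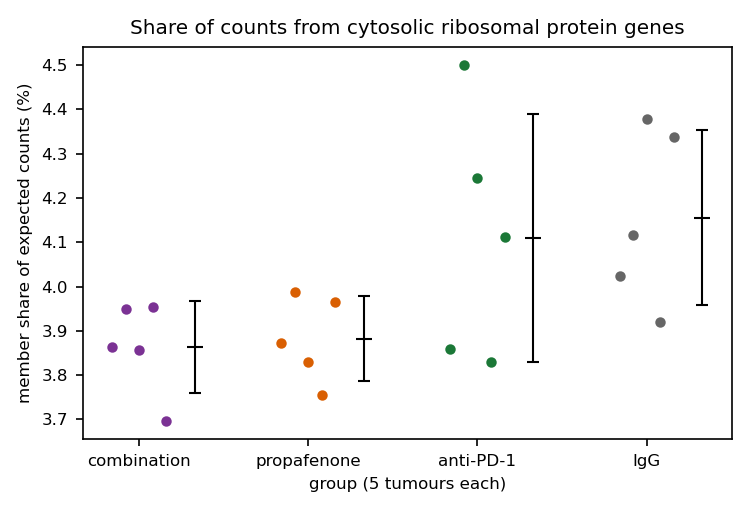
Share of all expected counts from the cytosolic ribosomal protein genes, in percent, for each of 5 tumours per group, with the mean and SD as a bar beside the points. Combination tumours lie between 3.70% and 3.95%, and IgG tumours between 3.92% and 4.38%.

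Combination tumours had slightly lower ribosomal protein transcripts than IgG tumours. Of 82 members 79 had a fold change below 0, against 51.8% of the 15875 genes tested, and the median log2 fold change was -0.18, against -0.01 for all genes. On the linear scale the members' median was a change of -11.9%. Adjusted over all genes, edgeR's quasi-likelihood test called 10 members lower and 1 higher, at Benjamini-Hochberg adjusted p under 0.05. Among all genes 2.63% were called lower, 2.24% higher and 4.88% in either direction. All 5 combination tumours lay below all 5 IgG tumours for 36 members, which 7.21% of all genes did, and no member showed the reverse, which 4.72% of all genes did. At an unadjusted p under 0.05, 52 members were lower, against 13.4% of all genes. Members varied together between tumours within groups (median Pearson r of 0.86 with the mean of the others). Counts of members are therefore not counts of separate observations. The members' median varied between tumours with a pooled SD within groups of 0.091. Medians by structure were -0.20 for 31 small subunit genes, -0.18 for 43 large subunit genes, -0.21 for the 3 stalk genes and -0.11 for the 5 paralogs.

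Rps27l, a paralog of Rps27 that p53 induces in human cells, had the smallest p. It measured 117, 112, 98.2, 104 and 104 CPM in combination tumours, against 129, 145, 137, 139 and 145 CPM in IgG tumours. The groups did not overlap, and the log2 fold change was -0.37 ± 0.0692 (SE, edgeR adjusted p = 0.0128). Propafenone tumours had 127, 133, 123, 115 and 121 CPM, reaching into the range of both, and anti-PD-1 tumours had 137, 150, 149, 119 and 127 CPM. Its core counterpart Rps27, a zinc finger protein of the small subunit, had 95.3, 102, 94.6, 95.3 and 84.0 CPM in combination tumours, against 107, 110, 125, 110 and 119 CPM in IgG tumours. It fell by 0.28 on the log2 scale (edgeR adjusted p = 0.0484). Neither of these related genes overlapped between the 2 groups.

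Among the other small subunit genes called lower, Rps13, which sits at a bridge between the subunits, measured 345, 343, 331, 323 and 296 CPM in combination tumours, against 374, 412, 416, 396 and 449 CPM in IgG tumours (log2 fold change -0.32 ± 0.0689, edgeR adjusted p = 0.0207). Rps2 measured 1532, 1583, 1506, 1500 and 1420 CPM in combination tumours, against 1746, 1676, 1861, 1811 and 2162 CPM in IgG tumours (-0.30 ± 0.0720, edgeR adjusted p = 0.0284). Neither gene overlapped between the groups, and IgG tumour 5 held the highest value of each. Rps25, a protein used by some viral internal ribosome entry sites, measured 312, 307, 296, 283 and 280 CPM in combination tumours, against 317, 333, 363, 340 and 358 CPM in IgG tumours. It fell by 0.21 on the log2 scale (edgeR adjusted p = 0.0444).

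On the large subunit, Rpl13a, which in human monocytes can leave the ribosome to silence inflammatory messengers, measured 811, 808, 775, 783 and 738 CPM in combination tumours, against 874, 911, 981, 881 and 945 CPM in IgG tumours. Its log2 fold change was -0.23 ± 0.0590 (edgeR adjusted p = 0.0321), without overlap. Rpl35, at the exit of the peptide tunnel, measured 246, 248, 251, 265 and 237 CPM in combination tumours, against 261, 303, 313, 275 and 302 CPM in IgG tumours. Combination tumour 4 lay above IgG tumour 1 there, and the log2 fold change was -0.22 (edgeR adjusted p = 0.0394). Rpl24, a protein of the subunit interface, measured 338, 309, 304, 295 and 298 CPM in combination tumours, against 328, 391, 408, 357 and 417 CPM in IgG tumours (-0.30, edgeR adjusted p = 0.0457). Rpl27 measured 448, 432, 447, 405 and 394 CPM in combination tumours, against 477, 526, 516, 533 and 619 CPM in IgG tumours (-0.33, edgeR adjusted p = 0.0461). Rpl24 overlapped through 1 combination and 1 IgG tumour, and Rpl27 did not overlap. Rpl35, Rps25, Rpl24 and Rpl27 were named after their values were seen, since they also passed the threshold.

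Rpl3l, a copy of Rpl3 made in skeletal and heart muscle, was the member called higher. It had 0.848, 0.726, 0.254, 0.892 and 0.593 CPM in combination tumours, against 0.115, 0.0968, 0.382, 0.307 and 0.203 CPM in IgG tumours. That is 54, 46, 16, 57 and 40 counts against 7, 6, 23, 18 and 11 counts, a log2 fold change of 1.58 ± 0.442 (edgeR adjusted p = 0.0453). The groups overlapped through combination tumour 3, which also held the lowest muscle sum of its group, 64.1 CPM. With the muscle list as a covariate the log2 fold change of Rpl3l was 0.92 (edgeR adjusted p = 0.53). Rpl3 itself, the ubiquitous copy, stood at -0.10 (edgeR adjusted p = 0.389).

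**Figure D3:**
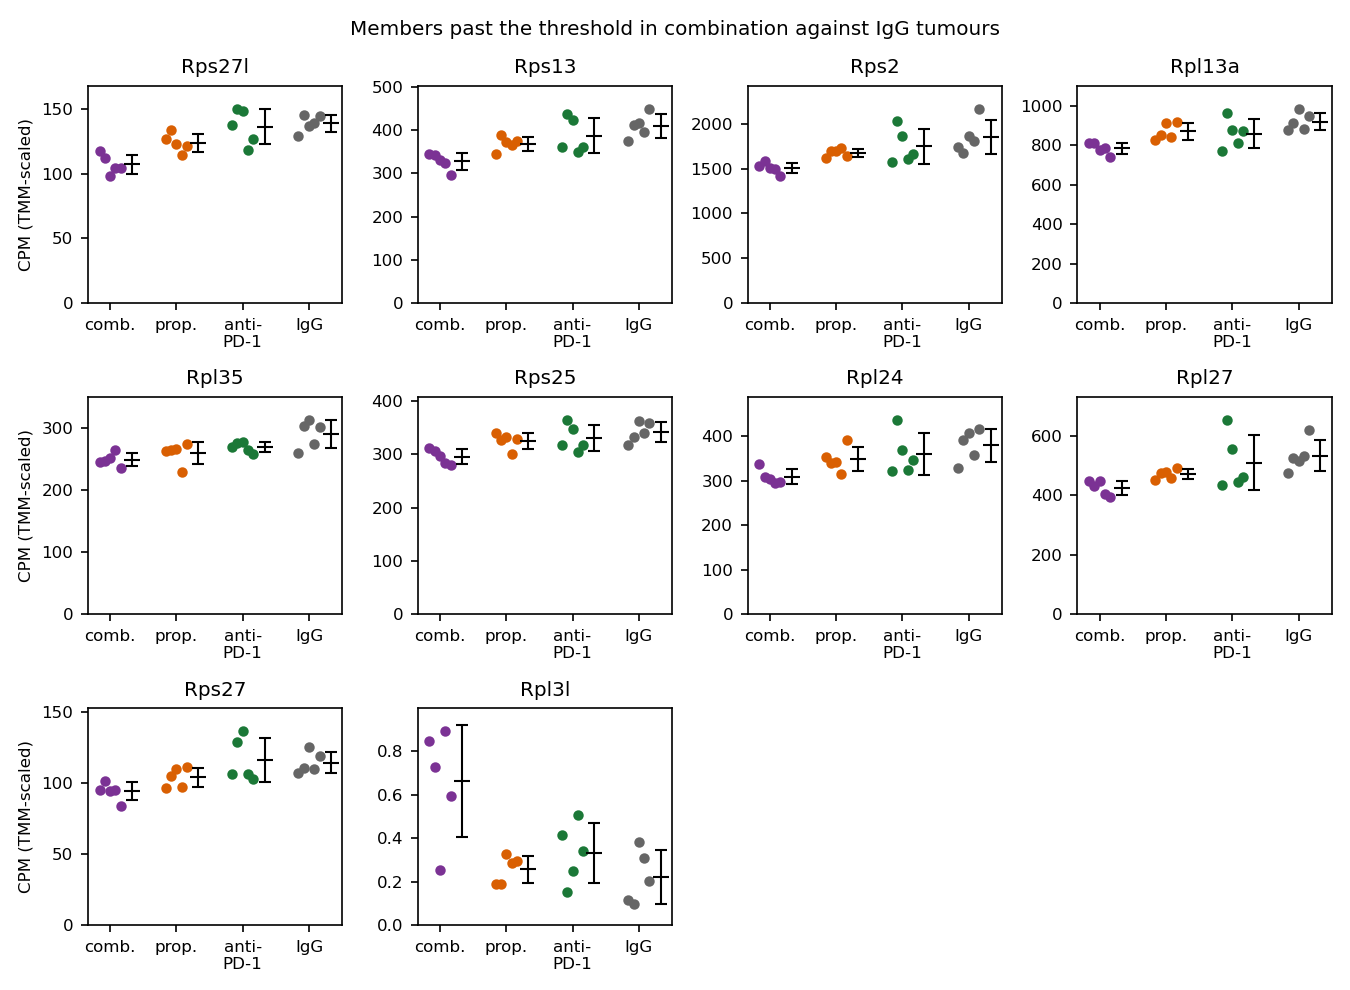
CPM of 10 of the 11 members past the threshold in combination against IgG tumours, each axis from 0, for all 4 groups of 5 tumours, with mean and SD as a bar. The lower genes differ by small steps, such as 107 CPM in combination and 139 CPM in IgG tumours for Rps27l, and Rpl3l stays under 1 CPM in every tumour.

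The call of single members rested on few tumours. Without IgG tumour 3 or IgG tumour 5 edgeR called 0 members, without combination tumour 4 or 5 it called 1, without combination tumour 1 it called 2, without combination tumour 2 or 3 or IgG tumour 4 it called 3, and without anti-PD-1 tumour 2, which enters the shared spread, it called 29. The calls over all genes moved in the same fits, with 5 and 67 genes called without IgG tumour 3 and IgG tumour 5, 147 and 72 without combination tumour 4 and 5, and 1067 without anti-PD-1 tumour 2, against 774 with all libraries. Without IgG tumour 1 or 2, propafenone tumour 1, 2, 3 or 5, or anti-PD-1 tumour 3 or 5 it called 5 to 7, and without each of the remaining 3 it called 8 to 11. With library totals or DESeq2 size factors in place of TMM it called 4, beside 480 and 523 of all genes. The median of the members stayed between -0.21 and -0.12 in all 20 such fits, nearest to 0 without IgG tumour 5. Rps27l remained called in 18 of 20 fits and Rps13 in 16 of 20. Rps2 remained called in 13, Rpl13a in 9, Rpl35 and Rpl3l in 7 each and Rpl24 in 6. Most left-out tumours ended the calls of Rpl27, Rps25 and Rps27, which stayed in 4, 3 and 2 fits. With the muscle list as a covariate edgeR called 0 members and the median was -0.02, and with the red blood cell list it called 0 and the median was -0.07. Of all genes, 7 were called with the muscle covariate and 230 with the red blood cell covariate. The part of those cells in the result was not tested. Combination tumour 3, with a muscle sum of 64.1 CPM that lies within the range of IgG tumours, had a member share of 3.86%. IgG tumour 5 had the highest red blood cell sum, 11803 CPM, and the lowest TMM factor, 0.926, of all 20 tumours. Its total, 58.7 M counts, was the lowest of its group. The part of these in its values was not tested.

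Most members that did not pass also lay below 0. Among 26 named members not called, 10 of 909 values under the alternatives were called. The stalk protein Rplp1 had 592, 582, 568, 586 and 498 CPM in combination tumours, against 668, 660, 703, 632 and 754 CPM in IgG tumours (-0.27, edgeR adjusted p = 0.0508). DESeq2 (adjusted p = 0.0408) and limma voom (adjusted p = 0.0413) called Rplp1. Its partner Rplp2 stood at -0.21 (edgeR adjusted p = 0.188) and Rplp0, which anchors both on the large subunit, at -0.17 (0.136). Rps26, Rps3, a small subunit protein that also acts in DNA repair, and Rps29 stood at -0.23, -0.23 and -0.26 (edgeR adjusted p = 0.0631, 0.0786 and 0.0734). Rps19 and Rps14, genes whose loss in humans causes anaemias, stood at -0.22 and -0.17. Rps6, the target of the S6 kinases downstream of mTOR, stood at -0.12 and Rps4x at -0.13. Rpsa stood at -0.18, Rpl10 at -0.18, Rpl29 at -0.19, Rpl41 at -0.23, Rpl39 at -0.20, Rpl23 at -0.13, Rpl7 at -0.11, Rps27a, made as a fusion with ubiquitin, at -0.13, and Rpl22 at -0.07. The p53 regulators Rpl11 and Rpl5 stood at -0.16 and -0.12. Of the paralogs that did not pass, Rpl22l1 stood at -0.17, Rpl39l at -0.11 with under 1 CPM in every tumour, and Rpl7l1 at -0.03. The fold changes above 0 were those of Rpl3l, Rpl21 (0.07) and Rps24 (0.01).

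**Figure D4:**
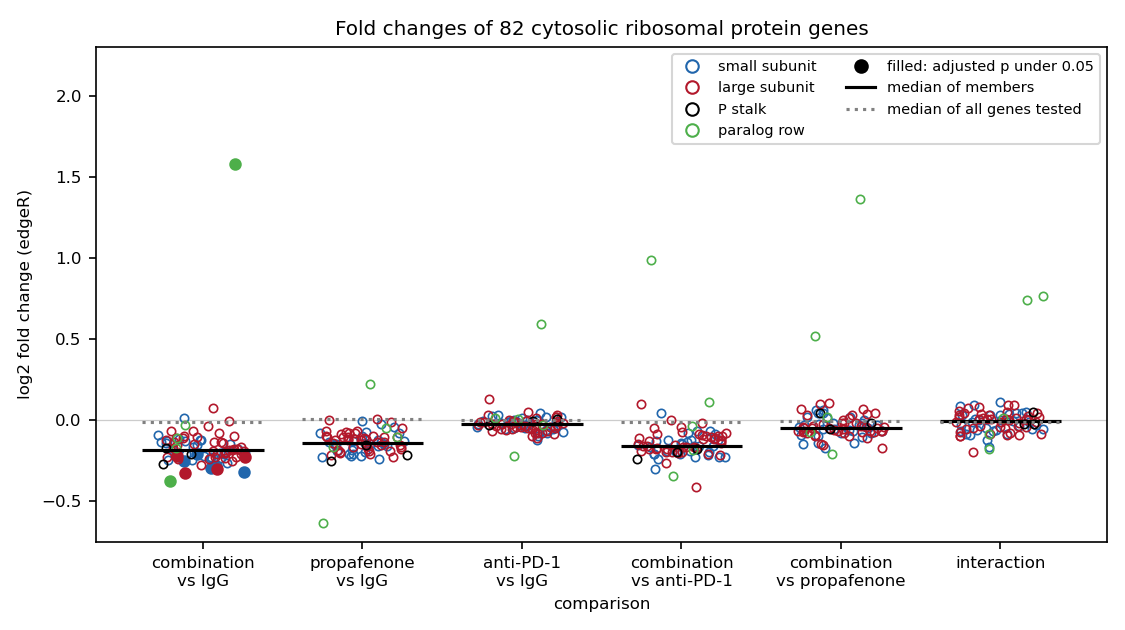
Log2 fold changes of the 82 tested members in 5 pairwise comparisons and the interaction (edgeR), coloured by subunit, filled where the adjusted p was under 0.05. Solid lines give the members' medians, -0.18, -0.14, -0.03, -0.16, -0.05 and -0.01 from left to right, and dotted lines those of all genes tested, all between -0.01 and 0.00.

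No member passed the threshold in propafenone against IgG tumours, although most lay below 0. Of 82 members 79 had a fold change below 0, against 49.1% of all genes, and the median was -0.14, against 0.00 for all genes. On the log2(TPM + 1) scale the members' median was -0.065 with 68 members below 0, and that of all genes was 0.053. With the muscle list as a covariate the members' median was -0.074. edgeR called 0 members and 0% of all genes, with the lowest adjusted p of a member at 0.913. At an unadjusted p under 0.05, 32 members were lower, against 2.92% of all genes, and DESeq2 and limma voom also called 0 members. All 5 propafenone tumours lay below all 5 IgG tumours for 21 members, against 0.706% of all genes. Since members varied together between tumours, these counts are not separate observations either. The smallest p belonged to Rpl27a, with 443, 459, 437, 427 and 445 CPM in propafenone tumours, against 459, 491, 512, 508 and 546 CPM in IgG tumours (log2 fold change -0.19 ± 0.0606, edgeR adjusted p = 0.913). Those groups met at 459 CPM. Rps26 stood at -0.20 with 266, 269, 276, 260 and 290 CPM in propafenone tumours, against 284, 303, 320, 317 and 337 CPM in IgG tumours. Rplp1 stood at -0.22 with 561, 598, 600, 578 and 600 CPM in propafenone tumours, below every IgG tumour. All 3 stalk genes lay lower without overlap, Rplp2 at -0.25 and Rplp0 at -0.15. Fold changes above 0 were found for Rpl3l (0.22), Rpl17 (0.00) and Rpl21 (0.00).

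No member passed the threshold in anti-PD-1 against IgG tumours. edgeR called 0 members and 0% of all genes, and 0 members passed an unadjusted p under 0.05, against 3.57% of all genes in the lower direction. DESeq2 and limma voom called 0. The median was -0.03, against 0.00 for all genes, and 61 members lay below 0, against 50.3% of all genes. Leaving out single tumours moved that median between -0.08 without anti-PD-1 tumour 2 and 0.02 without IgG tumour 5, so its sign was not fixed. The smallest p were those of Rpl35 (-0.11), Rpl13a (-0.10) and Rps29 (-0.12), with edgeR adjusted p of 0.707 to 0.797. Anti-PD-1 tumour 2 stood high within its group in many members. It had 2159 CPM of Rplp0, against 1622 to 1923 CPM in the other anti-PD-1 tumours, and of its group it had the lowest muscle sum, 31.3 CPM, the highest red blood cell sum, 5859 CPM, and the highest melanocyte sum, 29110 CPM. It also had the lowest total, 56.0 M counts, and the highest share of mitochondrial-DNA counts, 5.66%, of all 20 tumours. The part of these in its values was not tested.

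Set against anti-PD-1 tumours, the combination tumours again had lower values without a call. edgeR called 0 members and 0% of all genes, the median was -0.16, against -0.01 for all genes, and 77 of 82 members lay below 0, against 52.1% of them. Without anti-PD-1 tumour 2 the median was -0.089, and without the 5 libraries above 1000 CPM of Hbb-bs, a red blood cell gene, it was -0.076. At an unadjusted p under 0.05, 43 members were lower, against 6.16% of all genes. For 6 members the combination tumours all lay below the anti-PD-1 tumours, against 1.23% of all genes. Here too the members varied together, so their counts are not separate observations. Rps27l had 117, 112, 98.2, 104 and 104 CPM in combination tumours, against 137, 150, 149, 119 and 127 CPM in anti-PD-1 tumours (-0.35 ± 0.0692, edgeR adjusted p = 0.261). It was the member that DESeq2 called, beside 7 of all genes. Rps27 (-0.30) and Rps13 (-0.24) followed, both with edgeR adjusted p of 0.445 and without overlap. Rpl38, a large subunit protein with a role in translating Hox messengers in mouse embryos, showed the lowest fold change, -0.41, with the largest spread of any core member.

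Against propafenone tumours the combination tumours were close. edgeR called 0 members, beside 3.88% of all genes, and 5 members were lower at an unadjusted p under 0.05, against 13% of all genes. DESeq2 called 1, limma voom 0, and edgeR 1 without propafenone tumour 4. Over all genes these fits called 1466, 922 and 1882. The median was -0.05, against -0.01 for all genes, and 60 members lay below 0, against 51% of all genes. That median was -0.0062 with library totals in place of TMM, where the median of all genes was 0.036. With the muscle list as a covariate the members' median was 0.042, against -0.01 for all genes, so its sign was not fixed. It was -0.023, -0.029 and -0.027 without combination tumour 5, propafenone tumour 3 and propafenone tumour 5. Rpl3l had the smallest p, with 0.848, 0.726, 0.254, 0.892 and 0.593 CPM in combination tumours, against 0.191, 0.189, 0.325, 0.287 and 0.293 CPM in propafenone tumours (1.36 ± 0.437, edgeR adjusted p = 0.074). Rps27l (-0.21, edgeR adjusted p = 0.0836) and Rpl13a (-0.15, 0.128) followed. For 4 of 82 members, Rpl13a, Rps2 and Rpl27 among them, the combination tumours all lay below the propafenone tumours. That is about the same share as the 4.88% of all genes, so it does not set the members apart.

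The interaction asks how far the combined treatment departed from the 2 single treatments added up in log2 units, and it was near 0. edgeR called 0 members and 0% of all genes, 0 members had an unadjusted p under 0.05, against 1.73% of all genes in the lower direction, and DESeq2 and limma voom called 0. The median was -0.01, the same as for all genes, and 43 of 82 members lay below 0, against 51.7% of all genes. The smallest p were those of Rps27l (-0.18 ± 0.0978), Rps3a1 (-0.13) and Rps27 (-0.17), all with edgeR adjusted p of 0.99. The 3 comparisons against IgG use the same 5 IgG tumours, so their directions are not separate evidence.

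Within groups most members varied together from tumour to tumour. With group means removed, the log2 CPM of a member correlated with the mean of the other members at a median Pearson r of 0.86 over 20 tumours (-0.33 to 0.94), and 73 of 82 members were above 0.5. These points share library, depth and scaling, and the values are a description. Below 0 stood Rpl4, which hosts 5 small nucleolar RNA genes, Rpl3l and Rpl21, at -0.33, -0.23 and -0.06. In anti-PD-1 tumour 2, where Rps14 was at 695 CPM against 421 to 544 CPM in the other anti-PD-1 tumours, Rpl4 was at 1129.7 CPM, the lowest of its group. The largest SD of log2 CPM within groups belonged to Rpl39l (0.946), Rpl3l (0.608), Rpl38 (0.302), Rps21 (0.168) and Rps16 (0.164), and the smallest to Rps4x (0.0513), Rpl5 (0.0624) and Rpl7 (0.0686). Rpl38 ranged from 32.8 to 61.5 CPM among combination tumours and from 41.8 to 68.0 CPM among IgG tumours. Of 9315 genes outside the rule with at least 10 CPM, those most like the members' mean over the 20 tumours included Fau (r = 0.94), which encodes a ribosomal protein fused to a ubiquitin-like one. Sem1 (0.94), Uqcrq (0.90), Eif3i (0.90), Eef1b2 (0.89), Sap18b (0.89) and Cops6 (0.89) were also among the 8 highest.

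Other gene groups of translation were read in combination against IgG tumours. The 4 tested cytosolic ribosomal protein genes outside the symbol rule all lay below 0 without a call, with Fau at -0.31, Rack1, a scaffold on the small subunit, at -0.18 and Rpl36al at -0.12. Their median was -0.22. Among all genes 2.63% were called lower and 2.24% higher in this comparison. Of 39 translation factors, edgeR called Eif3h lower (-0.25, adjusted p = 0.0284) and Eif4a2, an RNA helicase of initiation, higher (0.62, adjusted p = 0.0292), and their median was -0.13. Of 52 ribosome biogenesis genes it called Pes1 and Utp4 lower (-0.22 and -0.30, edgeR adjusted p = 0.0343 and 0.0388), with a median of -0.03. Of 22 genes listed around the regulation of ribosomal protein synthesis it called 2 lower. These were the mTOR inhibitor Tsc2 (-0.24, edgeR adjusted p = 0.0304) and Cdkn1a (-1.49, edgeR adjusted p = 0.0461), a p53 target that the list also holds. Of 78 mitochondrial ribosomal proteins it called 8 lower, Mrpl45 (-0.32, edgeR adjusted p = 0.0122), Mrpl30 (-0.32) and Mrpl10 (-0.23) with the smallest p, and 68 of 78 lay below 0 with a median of -0.14. In anti-PD-1 and in propafenone tumours, each against IgG, edgeR called 0 genes of these lists. In combination against propafenone tumours it called Eif3m (-0.25), Utp4 (-0.30), Cdkn1a (-1.69), Mrpl45 (-0.31) and Mrpl17 (-0.35) lower, beside 3.88% of all genes called in either direction.

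Transcript length went along with the direction in part. The members are short, with a median length of 704 bases. Among genes outside the rule at 50 CPM or more, the median log2 fold change in combination against IgG tumours was -0.11 for 461 genes under 750 bases and -0.03 for 274 genes of 6000 bases or more. In propafenone against IgG tumours those medians were -0.06 and 0.06. In both comparisons the members' medians, -0.18 and -0.14, lay below that of the short genes. The part of length in the result was not tested, and these classes were formed after the values were seen.

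**Figure D5:**
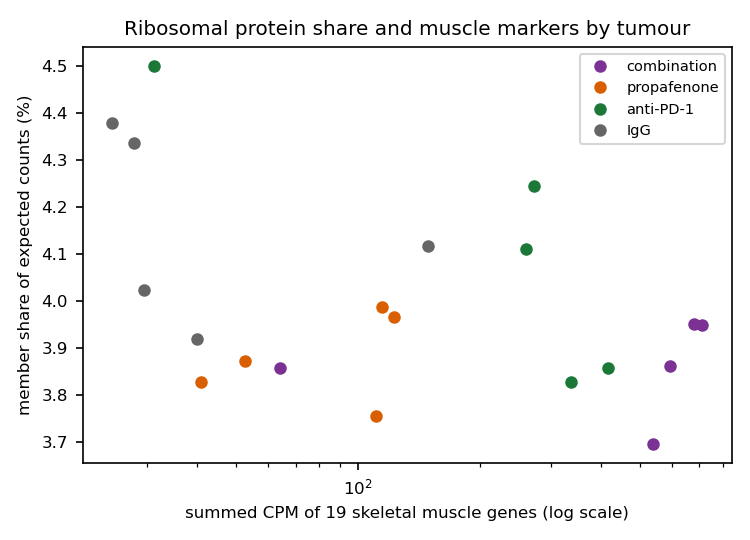
Member share of counts, in percent, against the summed CPM of 19 skeletal muscle genes on a log axis, 1 point per tumour, coloured by group. Combination tumours except tumour 3, at 64.1 CPM, lie at 536 CPM of muscle genes or more, and the highest member share, 4.50%, is that of anti-PD-1 tumour 2 at 31.3 CPM.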

How the data were processed

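Total RNA of the 20 tumours was made into libraries with a SMARTER mRNA kit, per the labels' protocols. Per the submitters' processing notes the reads went through HISAT2 2.2.1, SAMtools 1.9 and FastQC, with mm10 and GRCm38 as builds. The counting tool, annotation release and strand setting are not given in the sources used here. The authors deposited expected counts, stored as whole numbers, and TPM. How many counts stand for 1 fragment is not known.

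Counts were scaled by TMM and filtered by filterByExpr, and edgeR 4.0.16 under R 4.3.3 fitted a mean for each group in a robust quasi-likelihood model of the 20 libraries, leaving 16 residual degrees of freedom. Its p-values were adjusted by Benjamini-Hochberg over 15875 genes. Standard errors come from the size of the fold change over the root of its F value. The procedure was tested on simulated data with genes drawn independently and with changes larger than the members' median. That test does not cover changes as small as theirs or genes that vary together. Alternatives were other scalings, no filter, DESeq2 1.42.0, limma 3.58.1 voom, log2(TPM + 1) and log2(TPM + 0.1), a replicate block, the groups of each contrast alone, counts divided by 4, marker covariates, dropping 5 libraries with Hbb-bs above 1000 CPM, and single left-out libraries. Members, lists, tests and alternatives were chosen with earlier results of these data known.

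Members are named by a rule: up to 5 past the threshold with the smallest p in each direction, otherwise the 3 smallest p, a panel of core proteins and paralogs, and the extremes of level and spread. The 8 most similar genes and up to 3 called genes of each related list and direction are also named, except for items not reported here. Depth limits precision for members under 1 CPM. Promoter windows come from RefSeq for GRCm38.p6, 250 bases before to 50 after the start.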

Additional observations from a re-analysis of the deposited data

Results flagged for a closer look

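Single tumours stood apart from the other 4 of their group in 11 of 148 sets of 5 values, from the named members and the share of counts in each group, by Dixon's ratio of gap to range above 0.71. Chance alone marks about 1 in 20 such sets. Combination tumour 5 was low in the stalk proteins Rplp1 (498 CPM, others 568 to 592) and Rplp2 (207 CPM, others 245 to 259) and in Rpl39 (89.7 CPM, others 106 to 111). Combination tumour 2 was high in Rps27a (529 CPM, others 464 to 482). Propafenone tumour 4 was high in Rpsa (1617 CPM, others 1476 to 1517) and low in Rpl35 (229 CPM, others 263 to 275), and propafenone tumour 2 was low in Rpl3 (1148 CPM, others 1170 to 1177). Anti-PD-1 tumour 2 was high in Rpl11 (406 CPM, others 314 to 337). IgG tumour 5 was high in Rplp0 (2120 CPM, others 1711 to 1804), Rplp2 (327 CPM, others 257 to 277) and Rps3 (1166 CPM, others 915 to 980).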

How the results depend on the processing

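Members called in combination against IgG tumours numbered 11 by edgeR, 4 with DESeq2 size factors, with library totals, with no filter and with counts divided by 4, 6 with log2(TPM + 1) and with log2(TPM + 0.1), 5 without the libraries high in Hbb-bs, and 0 with the muscle or the red blood cell covariate. Over all genes edgeR called 774 in the main fit. With DESeq2 size factors, library totals, no filter and counts divided by 4, calls over all genes numbered 523, 480, 463 and 724. They numbered 1053 and 914 on the 2 TPM scales and 977 without the libraries high in Hbb-bs. The muscle and red blood cell covariates left 7 and 230. Leaving out single libraries gave 0 to 29 members, beside 5 to 1067 of all genes. The members' median was -0.110 with library totals, -0.075 with log2(TPM + 1), -0.081 with log2(TPM + 0.1), -0.023 with the muscle and -0.071 with the red blood cell covariate. Library totals and the 2 TPM scales also moved the median of all genes, from -0.01 to 0.06, 0.08 and 0.10. The members' difference from that of all genes was -0.169, -0.153 and -0.184, against -0.171 in the main fit. In anti-PD-1 against IgG tumours the median was 0.070 with the muscle and 0.018 with the red blood cell covariate, and -0.065 without the libraries high in Hbb-bs. In propafenone against IgG tumours the members' median was -0.065 on both TPM scales and -0.074 with the muscle covariate. That of all genes was 0.053 and 0.071 on the TPM scales. The members' difference from it was -0.118 and -0.136, against -0.143 in the main fit. In combination against anti-PD-1 tumours the members' median was -0.052 on both TPM scales and -0.096 with library totals. It was -0.097 with the muscle and -0.091 with the red blood cell covariate, and -0.076 without the libraries high in Hbb-bs. That of all genes was 0.074 and 0.099 on the TPM scales and 0.049 with library totals. The members' difference from it was -0.126, -0.150 and -0.145, against -0.148 in the main fit. DESeq2 called 1 member there, beside 7 of all genes. In combination against propafenone tumours DESeq2, log2(TPM + 1) and the red blood cell covariate called 1 each, the last with a median of 0.064, and leaving out single libraries gave 0 to 1. Over all genes DESeq2, log2(TPM + 1) and that covariate called 1466, 775 and 1318. The members' median there was 0.042 with the muscle covariate, -0.0062 with library totals, -0.013 on both TPM scales, and -0.057 to -0.023 without single libraries. That of all genes was 0.036 with library totals, and 0.026 and 0.035 on the TPM scales. The members' difference from it was -0.042, -0.038 and -0.048, against -0.042 in the main fit. Member shares of summed TPM were 9.29% in combination, 9.36% in propafenone, 9.62% in anti-PD-1 and 9.78% in IgG tumours. Without muscle, red blood cell and mitochondrial-DNA genes in the total, shares of counts were 4.02% in combination and 4.03% in propafenone tumours. No called member changed sign in any alternative. The causes were not tested. The replicate block called 11 members with a median of -0.18, beside 829 of all genes called in combination against IgG tumours. Correlations within 30 pairs of tumours of equal number averaged -0.00119 (-0.559 to 0.548). Of 20 tumours, 7 correlated best with their own number, and no chance value was computed for that count. Such correlations cannot show whether tumours of equal number were handled together. Depth limits Rpl3l and Rpl39l, under 1 CPM in every tumour.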
